A study of Homo sapiens with 16 samples.

Results

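The genes described here encode the nuclear subunits of the oxidative phosphorylation system. They were followed in LNCaP, a human prostate cancer cell line derived from a lymph node metastasis, treated with the CDK inhibitor AT7519 or with DMSO. Members were chosen by symbol (the NDUFA, NDUFB, NDUFC, NDUFS and NDUFV families with NDUFAB1, the SDH, UQCR, COX and ATP5 subunit families, and CYC1). Pseudogenes were left out, and a mean deposited normalized count of 100 or more over the 16 samples was required. This gave 80 of the 60252 genes in the table: 36 for complex I, 4 for complex II, 10 for complex III, 13 for complex IV (with NDUFA4 placed there) and 17 for complex V. The values that selected the members are these means over all samples, which support no comparison of groups below. The members with the lowest means were COX7B2 (104.59) and NDUFB8 (245.21), and the highest means below the limit were those of NDUFA7 (62.72) and COX7A1 (11.21). COX4I2 at 0.06 and COX6A2 at 0 were among the 8 coding genes whose symbols matched but whose means were below the limit.

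Oxidative phosphorylation couples electron transfer through complexes I to IV of the inner mitochondrial membrane to ATP synthesis by complex V, the ATP synthase. Complex I takes electrons from NADH and complex II from succinate, complex III passes them from ubiquinol to cytochrome c, and complex IV reduces oxygen. Most subunits are encoded in the nucleus, and a small hydrophobic core is encoded in mitochondrial DNA. AT7519 inhibits several cyclin-dependent kinases including CDK9, the kinase that releases paused RNA polymerase II, and OGT is the enzyme that adds O-GlcNAc to nuclear and cytoplasmic proteins.

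The 16 samples form 8 groups of 2. AT7519 at 0.5 μM was given for 4 hours in the arms named siOGT1, siOGT2, OSMI2 and Scr, and DMSO was given in the same 4 arms. siOGT1 and siOGT2 are siRNAs against OGT given for 48 hours, and Scr is by its name the scrambled control. OSMI2 stands in the siRNA field of the labels and has the name of an OGT inhibitor; the sources used here give neither its dose and time nor whether control siRNA was added. All groups are the same cell line, and the labels do not state whether replicates were separate cultures. The p-values therefore rest on a spread between samples that may be only technical.

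Libraries held 40216911 to 147019364 counts, and within groups r between replicates was 0.983 to 0.991 over all genes. Levels are given as CPM, counts scaled to library size after TMM normalization. A gene was called when edgeR's quasi-likelihood test gave a Benjamini-Hochberg adjusted p under 0.05 over 23830 genes. OGT fell in siOGT1 (log2 fold change -3.91, adjusted p = 3.48e-11) and siOGT2 (-3.03, adjusted p = 1.35e-09) against Scr under DMSO in edgeR, and had a value of 0.35 in OSMI2 (adjusted p = 0.168). With AT7519 OGT was called higher in OSMI2 than in Scr (0.54, edgeR adjusted p = 0.00875). CDK9 rose with AT7519 by 0.32 in siOGT1 (adjusted p = 0.00256) and 0.60 in siOGT2 (adjusted p = 4.70e-06) in edgeR. It rose by 0.28 in OSMI2 (adjusted p = 0.00629) and 0.73 in Scr (adjusted p = 3.66e-07) in edgeR. The 7 luminal prostate markers summed to 3769 to 4703 CPM with AT7519 and 3885 to 4696 CPM with DMSO. The 13 measured markers of other cell types summed to 34.1 to 64.5 CPM with AT7519 and 36.1 to 59.7 CPM with DMSO, and none of them was at 0 in all samples; their part in the results was not tested.

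The mRNAs of the subunit genes rose together with AT7519 in every arm. In siOGT1, 77 of the 80 were called higher and 1 lower, where 19.4% of all tested genes were called higher and 22% lower. In siOGT2 the counts were 77 and 1, against 22.2% and 22.8% of all genes. In OSMI2 they were 77 and 1, against 23.6% and 23.6% of all genes. In Scr they were 78 and 1, against 21.8% and 24.6% of all genes. The median log2 fold change of the 80 genes was 0.61 in siOGT1, 0.66 in siOGT2, 0.70 in OSMI2 and 0.68 in Scr, beside medians over all tested genes of -0.05, -0.03, 0.02 and -0.05 in the same order. A count of 77 members was called higher in all 4 arms, which held for 15% of all tested genes, and NDUFV3 was the member called lower in all 4.

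The log2 fold changes of 69 members lay between 0.35 and 0.95 in all 4 arms, a window whose share over all tested genes was not computed. The mean of the 4 arms had an SD of 0.258 over the members. For the members higher in every arm the median range between arms was 0.12. In 71 members all 8 AT7519 samples lay above all 8 DMSO samples, against 12.9% of all tested genes, and in no member did all 8 lie below, against 14.4% of all tested genes. Within an arm both AT7519 samples lay above both DMSO samples in 77 members in siOGT1, 79 in siOGT2, 78 in OSMI2 and 78 in Scr, against 33.0%, 33.5%, 37.7% and 33.7% of all tested genes. These are relative levels: TMM factors were 0.864 to 0.952 in AT7519 libraries and 1.05 to 1.13 in DMSO libraries, and a rise of these mRNAs and a fall of other RNA cannot be told apart. Likewise, in bulk samples fewer cells of a type and less RNA per cell cannot be told apart. Over genes, the difference between replicates 2 and 1 correlated among Scr, siOGT1 and siOGT2 within an agent (r 0.604 to 0.734). Within these arms it did not correlate between agents (0.036 in Scr, -0.014 in siOGT1 and -0.135 in siOGT2). Whether the agents were handled in separate sets is not known here, and the part of handling was not tested. With library size as the scaling and no TMM factor, the median over all genes shifted to -0.27 in siOGT1, -0.30 in siOGT2, -0.22 in OSMI2 and -0.29 in Scr, and the members' medians were 0.38, 0.39, 0.45 and 0.43 in that order. The share of all calls that were higher was then 25.5%, 26.1%, 29.2% and 26.9%, beside 46.9%, 49.2%, 50.1% and 47.0% with TMM. Upper-quartile scaling moved that share to 59.1%, 57.8%, 62.1% and 58.7%, and the members' medians to 0.74, 0.77, 0.87 and 0.83. Over all alternatives run, 72 to 77 members were called higher in siOGT1, 74 to 77 in siOGT2, 73 to 78 in OSMI2 and 72 to 78 in Scr.

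**Figure D1:**
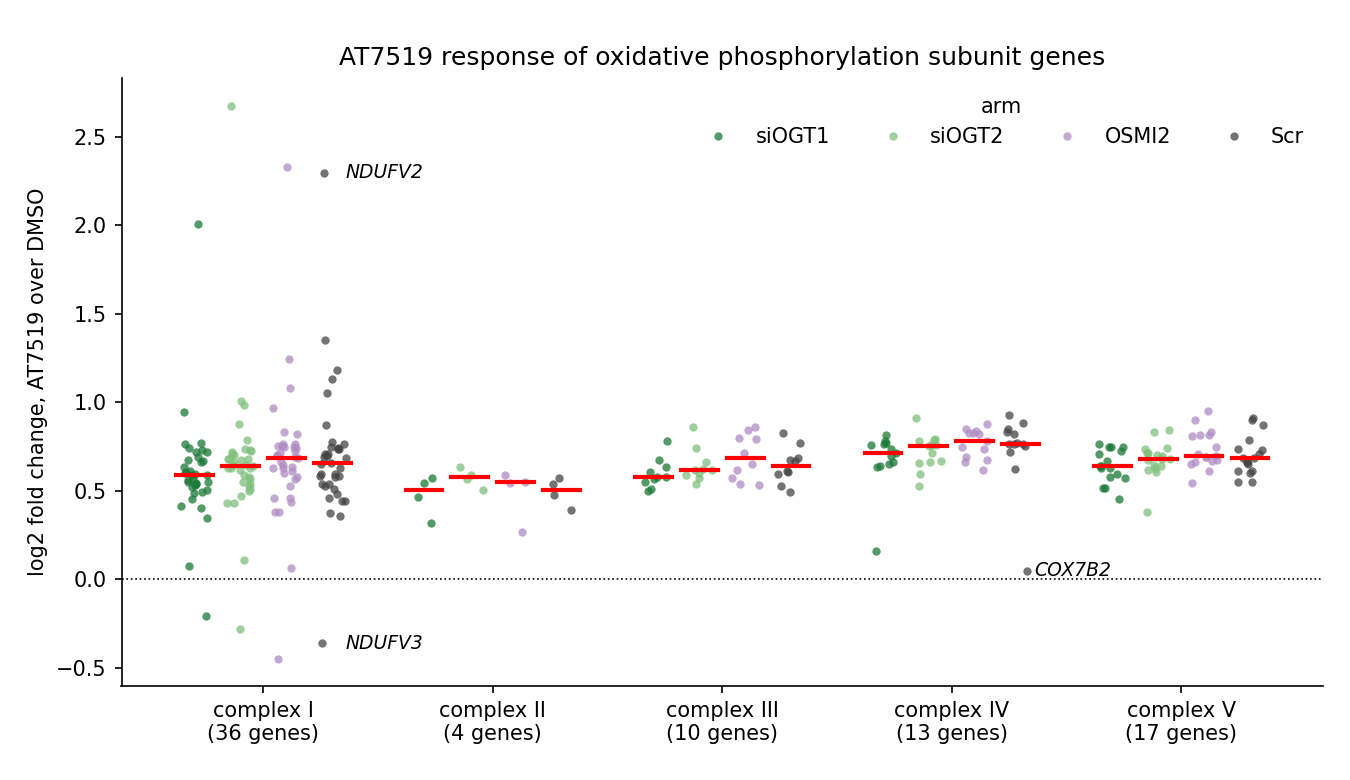
Log2 fold change of AT7519 over DMSO (vertical axis) for each of the 80 subunit genes, grouped by complex along the horizontal axis and coloured by arm, with the median of each arm and complex as a red bar. Nearly all points lie above 0, NDUFV2 stands highest at 2.01 to 2.68, and NDUFV3 stands lowest at -0.45 to -0.21.

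Together the 80 genes took 1.95% and 1.89% of all counts with AT7519 in siOGT1, 2.05% and 1.89% in siOGT2, 1.90% and 1.82% in OSMI2, and 1.98% and 1.99% in Scr. With DMSO they took 1.45% and 1.47% in siOGT1, 1.48% and 1.53% in siOGT2, 1.38% and 1.34% in OSMI2, and 1.47% and 1.5% in Scr. Every AT7519 library was above every DMSO library, and the OSMI2 libraries were the lowest among DMSO. Complex V took the most, 0.634% to 0.739% of counts with AT7519 and 0.458% to 0.552% with DMSO, and complex II the least, 0.079% to 0.088% with AT7519 and 0.064% to 0.074% with DMSO.

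**Figure D2:**
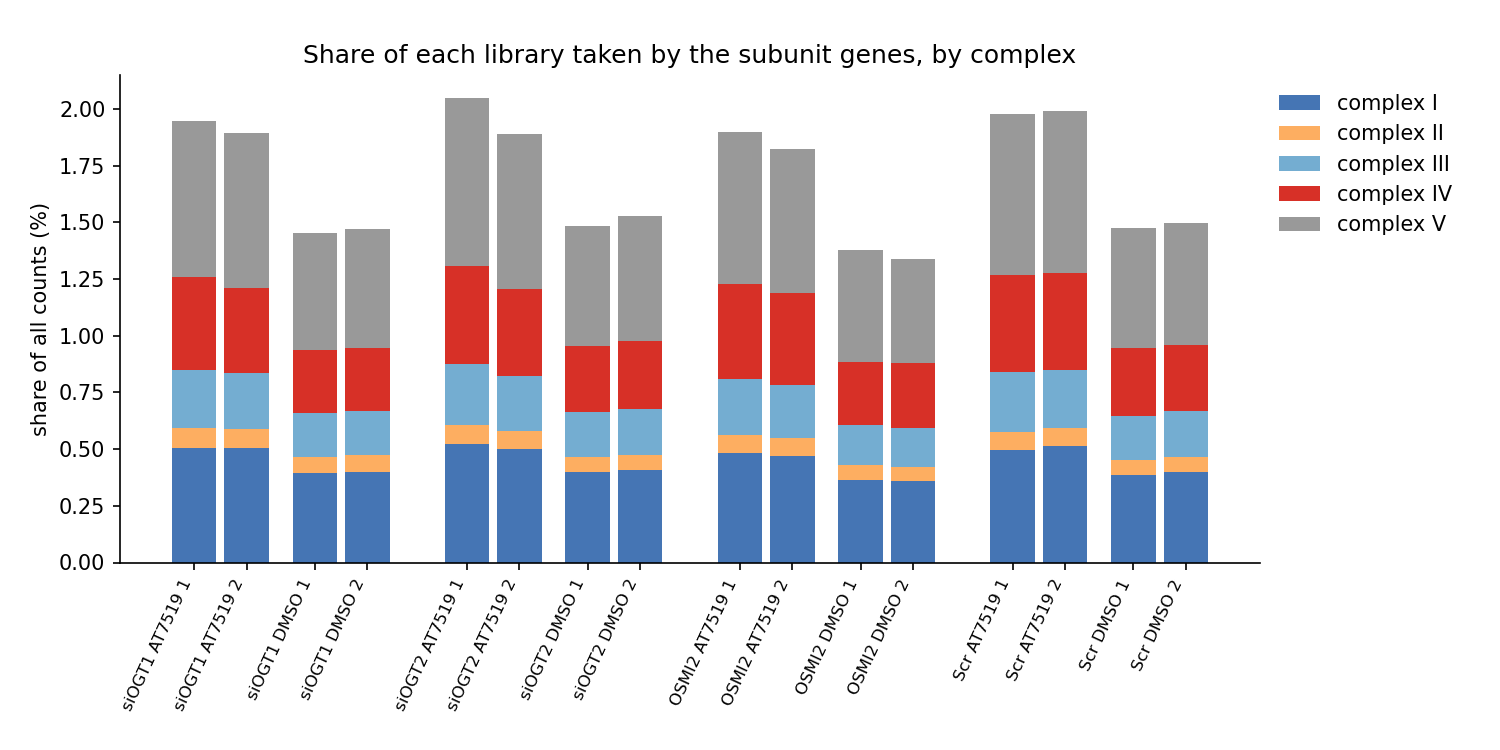
Percent of each library's total counts taken by the subunit genes (vertical axis), stacked by complex and coloured by it, for the 16 libraries along the horizontal axis, with the AT7519 libraries left of the DMSO libraries in each arm. The AT7519 libraries stand between 1.82% and 2.05% and the DMSO libraries between 1.34% and 1.53%.

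The sequences just before the transcription start were read for the members with the highest mean response in complexes I, III, IV and V, and for NDUFV3 and ATP5MC1, which were added after their values were seen because NDUFV3 moved the other way and ATP5MC1 fell with both OGT siRNAs. They are the 250 bases before the start in RefSeq's annotation of GRCh38.p14, written 5′ to 3′ on the gene's strand, with matches to the motifs named below in capitals on either strand. NDUFV2 (chr18:9102449-9102698, plus strand) held 3 GC boxes. UQCRQ (chr5:132866392-132866641, plus strand) held 1 ETS match. COX6A1 (chr12:120437863-120438112, plus strand) held 1 NRF1 match, 1 ETS match, 2 GC boxes and 2 CCAAT boxes. ATP5ME (chr4:674277-674526, minus strand) held 3 NRF1 matches. NDUFV3 (chr21:42893059-42893308, plus strand) held 2 GC boxes and 2 CCAAT boxes, and ATP5MC1 (chr17:48892537-48892786, plus strand) held 4 CCAAT boxes.
NDUFV2: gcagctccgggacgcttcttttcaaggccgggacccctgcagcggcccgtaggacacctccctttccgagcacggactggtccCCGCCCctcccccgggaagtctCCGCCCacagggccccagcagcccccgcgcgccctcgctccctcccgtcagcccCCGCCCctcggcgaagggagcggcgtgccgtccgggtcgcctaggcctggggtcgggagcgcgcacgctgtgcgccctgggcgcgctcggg
UQCRQ: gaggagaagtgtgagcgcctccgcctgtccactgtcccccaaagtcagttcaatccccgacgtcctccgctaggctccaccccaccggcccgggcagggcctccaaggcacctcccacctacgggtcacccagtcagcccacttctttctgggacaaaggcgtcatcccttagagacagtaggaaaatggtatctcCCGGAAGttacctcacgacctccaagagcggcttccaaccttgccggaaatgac
COX6A1: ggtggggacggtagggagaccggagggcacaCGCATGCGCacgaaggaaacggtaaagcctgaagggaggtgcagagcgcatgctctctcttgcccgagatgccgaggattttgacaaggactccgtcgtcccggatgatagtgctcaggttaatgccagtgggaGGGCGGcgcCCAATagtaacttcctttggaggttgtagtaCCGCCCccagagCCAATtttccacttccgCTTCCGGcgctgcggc
ATP5ME: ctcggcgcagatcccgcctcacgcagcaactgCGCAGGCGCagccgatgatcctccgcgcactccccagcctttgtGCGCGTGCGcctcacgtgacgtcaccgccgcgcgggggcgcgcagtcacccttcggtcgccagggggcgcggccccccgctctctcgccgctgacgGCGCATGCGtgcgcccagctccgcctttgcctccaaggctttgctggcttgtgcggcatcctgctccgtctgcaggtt
NDUFV3: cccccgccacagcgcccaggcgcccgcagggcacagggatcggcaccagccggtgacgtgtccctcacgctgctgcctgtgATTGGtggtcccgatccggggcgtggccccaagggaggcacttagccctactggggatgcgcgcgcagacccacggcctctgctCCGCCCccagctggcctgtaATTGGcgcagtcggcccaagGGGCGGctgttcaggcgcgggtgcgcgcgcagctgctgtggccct
ATP5MC1: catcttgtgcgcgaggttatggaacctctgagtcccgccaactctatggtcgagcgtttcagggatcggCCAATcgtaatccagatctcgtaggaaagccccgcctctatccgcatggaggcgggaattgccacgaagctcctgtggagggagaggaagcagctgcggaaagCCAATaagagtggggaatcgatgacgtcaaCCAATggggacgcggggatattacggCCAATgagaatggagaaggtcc

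NRF1 and the ETS factor GABP are textbook regulators of nuclear oxidative phosphorylation genes. RefSeq windows of 300 bases (250 before the start and 50 after it) were matched for 65 of the 80 members and searched for 6 motifs on both strands, none of which contains another. The NRF1 motif GCGCNTGCG was in 22 windows, 33.8%, against 8.1% of all 27305 promoters and 13.8% of the 11690 promoters of tested coding genes. The ETS motif CCGGAAG was in 20 (30.8%, against 10.7% and 17.7%), and the YY1 motif AAGATGGC in 10 (15.4%, against 3.0% and 4.9%), in 9 of them past the start. The GC box GGGCGG was in 39 (60.0%, against 44.6% and 67.5%), the CCAAT box CCAAT in 22 (33.8%, against 35.7% and 36.7%) and the TATA box TATAAA in 5 (7.7%, against 12% and 6.5%). The median response, as the mean log2 fold change of the 4 arms, was 0.60 for members with the NRF1 motif and 0.67 for those without it, and 0.69 with the ETS motif and 0.65 without it. For the other motifs the medians with and without a match lay between 0.65 and 0.67. A match describes the letters in the window and is not a binding site.

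In complex I, 34 members were called higher and 1 lower in siOGT1, siOGT2 and OSMI2, and 35 higher and 1 lower in Scr, with medians of 0.59, 0.64, 0.69 and 0.66 in that order. NDUFV2 encodes an iron-sulfur subunit of the module that oxidizes NADH, and it had the highest response. Its level was 7.25 and 12.2 in siOGT1, 10.4 and 15.2 in siOGT2, 15.1 and 12.1 in OSMI2, and 11.5 and 15.1 CPM in Scr with AT7519. With DMSO it was 2.95 and 1.79 in siOGT1, 2.53 and 1.45 in siOGT2, 2.65 and 2.76 in OSMI2, and 3.09 and 2.30 CPM in Scr. All 8 AT7519 samples lay above all 8 DMSO samples. The log2 fold change of NDUFV2 was 2.01 in siOGT1, 2.68 in siOGT2, 2.33 in OSMI2 and 2.30 (SE 0.31) in Scr, with adjusted p of 8.60e-05, 8.97e-06, 1.80e-05 and 2.00e-05 in edgeR. It shares 28.44% of its exonic bases with another gene on the same strand, which had 0 counts. That 0 does not show how reads in the shared bases were assigned. Under DMSO NDUFV2 had the lowest level of all members per kilobase of exonic length, 0.900 CPM. The part of read assignment in its response was not tested.

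NDUFV3 encodes an accessory subunit of the same NADH-oxidizing module. It stood at 86.0 and 78.1 in siOGT1, 77.2 and 76.0 in siOGT2, 63.3 and 62.6 in OSMI2, and 75 and 71.2 CPM in Scr with AT7519. With DMSO it stood at 95.3 and 94.4 in siOGT1, 94.2 and 91.7 in siOGT2, 85.2 and 86.7 in OSMI2, and 92.1 and 96.0 CPM in Scr. Both AT7519 samples lay below both DMSO samples in each arm. In edgeR the log2 fold change was -0.21 in siOGT1 (adjusted p = 0.0295), -0.28 in siOGT2 (adjusted p = 0.00461), -0.45 in OSMI2 (adjusted p = 5.17e-05) and -0.36 in Scr (SE 0.08, adjusted p = 4.64e-04). The call of NDUFV3 in siOGT1 was lost without AT7519 replicate 2 (-0.12, adjusted p = 0.351), without DMSO replicate 1 (-0.20, adjusted p = 0.132) or without DMSO replicate 2 (-0.22, adjusted p = 0.0925) in edgeR. In siOGT1 it was also lost under RLE scaling (-0.17, adjusted p = 0.0842), under upper-quartile scaling (-0.08, adjusted p = 0.401), with no low-count filter (-0.21, adjusted p = 0.104) and with the compared groups only (-0.20, adjusted p = 0.0599) in edgeR, and in DESeq2 (-0.17, adjusted p = 0.0657). In siOGT2 it was lost under upper-quartile scaling (-0.17, edgeR adjusted p = 0.0518). NDUFV3 shares no exonic base with another gene.

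Other complex I members with mean log2 fold changes above those of most were NDUFA11 at 1.06, NDUFS7 at 1.04 and NDUFA9 at 0.90. Under DMSO these genes stood at 1.47, 1.67 and 1.04 CPM per kb of exonic length. They share 12.13%, 49.12% and 10.61% of their exonic bases with other genes on either strand. NDUFS7 carries an iron-sulfur cluster close to the ubiquinone site, and NDUFA11 and NDUFA9 are accessory subunits. NDUFA13, another accessory subunit, was the complex I member that was not called in every arm: its level was 6.24 and 7.14 in siOGT1, 6.73 and 7.40 in siOGT2, 8.76 and 10.4 in OSMI2, and 9.78 and 12 CPM in Scr with AT7519. With DMSO it was 6.48 and 6.22 in siOGT1, 6.39 and 6.71 in siOGT2, 8.02 and 10.3 in OSMI2, and 7.29 and 7.84 CPM in Scr. The groups overlapped in siOGT1 and OSMI2 and not in siOGT2 and Scr. It rose in Scr (log2 fold change 0.53, SE 0.15, edgeR adjusted p = 0.00788), where the call was lost without AT7519 replicate 2 (0.38, adjusted p = 0.116) or DMSO replicate 1 (0.47, adjusted p = 0.0731). NDUFA13 shares 20.97% of its exonic bases with YJEFN3 and ENSG00000258674 on the same strand, and with AT7519 in Scr YJEFN3 fell (-1.34, edgeR adjusted p = 9.88e-05), as did ENSG00000258674 (-2.04, edgeR adjusted p = 9.19e-05). The sources used here do not say how reads in shared bases were counted.

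Complex II, succinate dehydrogenase, is fully encoded in the nucleus, and its 4 genes were called higher in each arm. SDHA encodes the flavoprotein that oxidizes succinate, SDHB the iron-sulfur subunit, and SDHC and SDHD the membrane anchors. SDHB stood at 102 and 95.5 in siOGT1, 102 and 95.9 in siOGT2, 74 and 70.4 in OSMI2, and 96.4 and 93.5 CPM in Scr with AT7519, against 64.9 and 67.6, 60.7 and 67.1, 49.9 and 48.7, and 61.5 and 66.1 CPM with DMSO in the same arms. All AT7519 samples of SDHB lay above all DMSO samples, and OSMI2 was the lowest arm with either agent. The mean response over arms was 0.58 for SDHB, 0.55 for SDHA, 0.51 for SDHC and 0.39 for SDHD. SDHD stood at 74.4 and 74.5 in siOGT1, 90.6 and 76.6 in siOGT2, 67.5 and 68.3 in OSMI2, and 86.3 and 86.3 CPM in Scr with AT7519. With DMSO it stood at 57.4 and 62.3, 52.9 and 60.0, 58.5 and 54.6, and 63.2 and 68.3 CPM in the same arms. The AT7519 and DMSO samples of SDHD did not overlap within any arm, but the OSMI2 samples with AT7519 were no higher than the higher Scr sample with DMSO. Its call in siOGT1 (0.32) was lost without DMSO replicate 1 (0.26, edgeR adjusted p = 0.103), and its call in OSMI2 (0.27) was lost when any 1 of 7 libraries was left out, at 0.21 to 0.23 with adjusted p up to 0.163. Those libraries were both AT7519 replicates of OSMI2, siOGT1 and Scr, and DMSO replicate 2 of OSMI2.

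All 10 complex III members were called higher in each arm, with medians of 0.58 in siOGT1, 0.62 in siOGT2, 0.68 in OSMI2 and 0.64 in Scr. UQCRQ, a small subunit that binds near cytochrome b, had the highest mean response. It stood at 209 and 183 in siOGT1, 241 and 190 in siOGT2, 201 and 209 in OSMI2, and 241 and 218 CPM in Scr with AT7519. With DMSO the values of UQCRQ were 113 and 115, 116 and 121, 115 and 114, and 130 and 129 CPM in the same arms. All AT7519 samples lay above all DMSO samples, and the log2 fold change in Scr was 0.83 (SE 0.09, edgeR adjusted p = 5.41e-07). UQCRC2, a core protein of the matrix arm, had the lowest mean response, 0.53, with 0.49 in Scr (SE 0.08, edgeR adjusted p = 2.24e-05). UQCRHL is a single-exon copy of UQCRH, so their reads may be split between them; both were called higher, with mean responses of 0.64 and 0.66.

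Complex IV had the highest median of the 5 complexes in each arm, 0.71 in siOGT1, 0.76 in siOGT2, 0.78 in OSMI2 and 0.77 in Scr; differences between complexes were not tested. Of its 13 members 12 were called higher in each arm and COX7B2 in none. COX6A1, a small subunit with a muscle form encoded by COX6A2, had the highest mean response. Its level was 81.8 and 74.1 in siOGT1, 101 and 87.5 in siOGT2, 84 and 83.7 in OSMI2, and 88.9 and 85.3 CPM in Scr with AT7519, against 47.2 and 41.3, 49.4 and 50.7, 47.1 and 46.2, and 47.7 and 43.8 CPM with DMSO in the same arms. The AT7519 samples were all above the DMSO samples, with a log2 fold change of 0.93 in Scr (SE 0.09, edgeR adjusted p = 7.64e-08). COX7B2, an isoform gene of subunit 7B, stood at 1.32 to 2.48 CPM with AT7519 and 0.875 to 1.81 CPM with DMSO, and its log2 fold changes of 0.05 to 0.62 had adjusted p of 0.0799 to 0.905 in edgeR. COX7A2 and COX7A2L share a subunit name; COX7A2L takes part in supercomplex assembly. COX7A2 rose by 0.77 in siOGT1, 0.76 in siOGT2, 0.83 in OSMI2 and 0.82 in Scr, and COX7A2L rose by 0.64, 0.66, 0.68 and 0.63 in the same arms.

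All 17 complex V members were called higher in each arm, with medians of 0.64 in siOGT1, 0.68 in siOGT2, 0.70 in OSMI2 and 0.69 in Scr. ATP5ME, which encodes subunit e of the membrane part, had the highest mean response. It stood at 31.7 and 29.1 in siOGT1, 36.9 and 25.5 in siOGT2, 34.2 and 28.4 in OSMI2, and 34.5 and 32.4 CPM in Scr with AT7519. With DMSO it stood at 18.2 and 17.9, 18.5 and 20.0, 16 and 16.5, and 18.3 and 17.5 CPM in the same arms. The groups did not overlap, and the log2 fold change of ATP5ME in Scr was 0.90 (SE 0.13, edgeR adjusted p = 1.45e-05). ATP5MC1, ATP5MC2 and ATP5MC3 encode the same mature c subunit of the rotor ring behind different import presequences. Their mean responses were 0.65 for ATP5MC1, 0.66 for ATP5MC3 and 0.50 for ATP5MC2, the lowest of complex V.

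Levels of different members were compared per kilobase of exonic length under DMSO. Genes with a low mean count were left out when the members were chosen. The lowest members and the medians of level, here and by shared exonic bases below, depend on that limit. The median was 31.9 CPM per kb in complex I, 22.9 in complex II, 59.4 in complex III, 97.7 in complex IV and 48.7 in complex V. The highest and lowest members in CPM per kb were NDUFS5 (456) and NDUFV2 (0.900) in complex I, and SDHC (26.1) and SDHA (16.5) in complex II. In complex III they were UQCRH (360) and UQCRHL (6.88), in complex IV COX7C (266) and COX7B2 (1.70), and in complex V ATP5F1B (640), the catalytic beta subunit, and ATP5PO (6.0). With the longest transcript as length the medians were 54.5, 43.8, 89.8, 109 and 84.3 CPM per kb for complexes I to V, in the same order of size, and with the principal transcript they were 71.3, 47.1, 106, 166 and 150, where complex V stood above complex III. The order within a complex depended on the length used. In complex II SDHC was the lowest by either transcript (27.3 CPM per kb), and the highest was SDHB (52.7) by the longest and SDHA (57.9) by the principal transcript. In complex I NDUFA9 was the lowest by either transcript (1.30 CPM per kb), and by the principal transcript NDUFB4 (592) was the highest; in complex IV COX4I1 (368) was then the highest.

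Some members share exonic bases with other genes, and the part of read assignment in their counts was not tested. Of the 80, 37 share no exonic base with another gene in GENCODE v29, and their median log2 fold change was 0.60 in siOGT1, 0.63 in siOGT2, 0.66 in OSMI2 and 0.63 in Scr. Of these 37, 35 were called higher and NDUFV3 lower in each arm. In 13 members 10% or more of the exonic bases lie in another gene on the same strand, and their median level was 8.63 CPM per kb, against 52.2 CPM per kb in the other 67. The 13 ranged widely in level: NDUFV2 (28.44% shared), NDUFA9 (10.61%), NDUFB8 (33.77%), NDUFA13 and ATP5PO (19.63%) were at 0.900 to 6.0 CPM per kb, and NDUFC1 (18.55%), COX8A (34.52%) and ATP5MK (15.37%) were at 47.6, 106 and 230 CPM per kb.

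**Figure D3:**
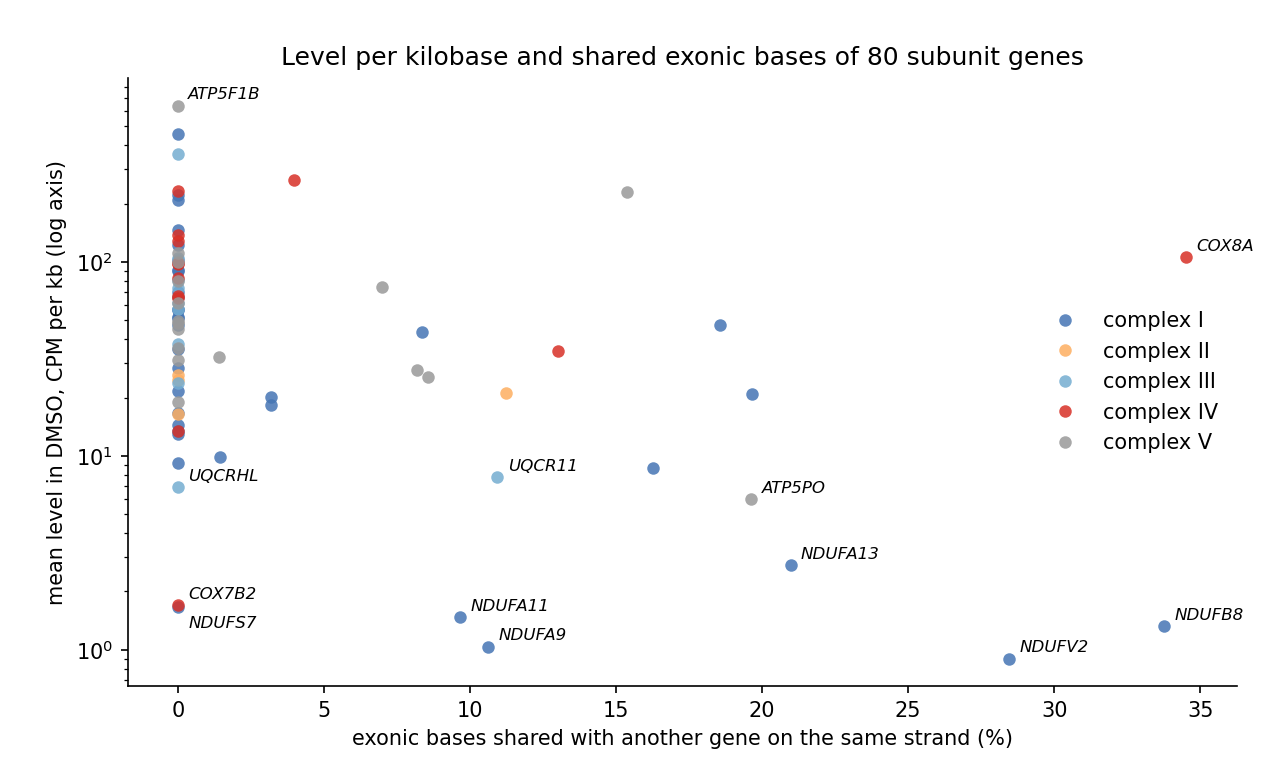
Mean level over the 8 DMSO samples in CPM per kb of exonic length (vertical log axis) against the percent of exonic bases shared with another gene on the same strand (horizontal axis) for the 80 members, coloured by complex. The 13 members at 10% or more have a median of 8.63 CPM per kb, and the other 67 have a median of 52.2 CPM per kb.

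Genes that surround the subunits in the pathway did not all move with them. With AT7519 in Scr, the comparison used for these lists, 21.8% of all tested genes were called higher and 24.6% lower. There 12 of 16 complex I assembly factors were called higher and 1 lower (median log2 fold change 0.40). NDUFAF5, which hydroxylates NDUFS7, rose by 1.01 (edgeR adjusted p = 3.10e-07), NDUFAF3 rose by 0.63, and TMEM186 fell by 0.77 (adjusted p = 1.98e-05). Of 31 measured assembly factors of complexes II to V, 16 were called higher and 2 lower (median 0.27). The copper chaperone COX17 rose by 0.66 and SURF1 by 0.67, and COA7 fell by 1.26 (edgeR adjusted p = 2.44e-05). In the tricarboxylic acid cycle, 13 of 14 genes were called higher and none lower (median 0.54). IDH3B rose by 0.84 (edgeR adjusted p = 4.62e-08), IDH3G by 0.91 and MDH2 by 0.64. Of 10 genes for cytochrome c and mobile carriers, 8 were called higher and none lower (median 0.53), among them SLC25A3, the phosphate carrier, at 0.63, the ADP/ATP carrier SLC25A6 at 0.70 and ETFA at 0.63.

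Most of the 10 listed transcription factors and coactivators known to act on these genes went the other way. The list was chosen with earlier results of these data known, and PPARGC1A in it stood at only 0.211 to 1.94 CPM. With AT7519 in Scr, 9 of 10 were called lower, against 24.6% of all tested genes, and the median over the list was -0.90. It was -0.75 in siOGT1 with 8 lower, -0.85 in siOGT2 with 9 lower and -0.84 in OSMI2 with 9 lower. In those arms 22%, 22.8% and 23.6% of all tested genes were called lower. NRF1 stood at 5.73 and 6.35 CPM with AT7519 and 16.8 and 17.6 CPM with DMSO in Scr, a log2 fold change of -1.51 (edgeR adjusted p = 3.85e-08). GABPB2, a GABP partner subunit, stood at 25.3 and 23.9 CPM with AT7519 and 47.6 and 51.7 CPM with DMSO, a log2 fold change of -1.01 (adjusted p = 2.08e-07). PPARGC1B, a coactivator of mitochondrial genes, stood at 5.05 and 6.13 CPM with AT7519 and 13.8 and 15.1 CPM with DMSO, a log2 fold change of -1.37 (edgeR adjusted p = 3.42e-07). In each of these 3 genes the AT7519 samples lay below the DMSO samples. YY1 was the regulator not called in Scr (0.03, edgeR adjusted p = 0.756). Of 12 genes for mitochondrial DNA transcription and replication 5 were called higher and 5 lower in Scr (median 0.06). The shares of all tested genes were 21.8% and 24.6%. SSBP1 was at 0.55, SLIRP at 0.66 and MTERF3 at -0.48. The 13 mitochondrially encoded subunit genes are listed at 0 in all samples, so the mitochondrial part of the complexes is not described here.

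**Figure D4:**
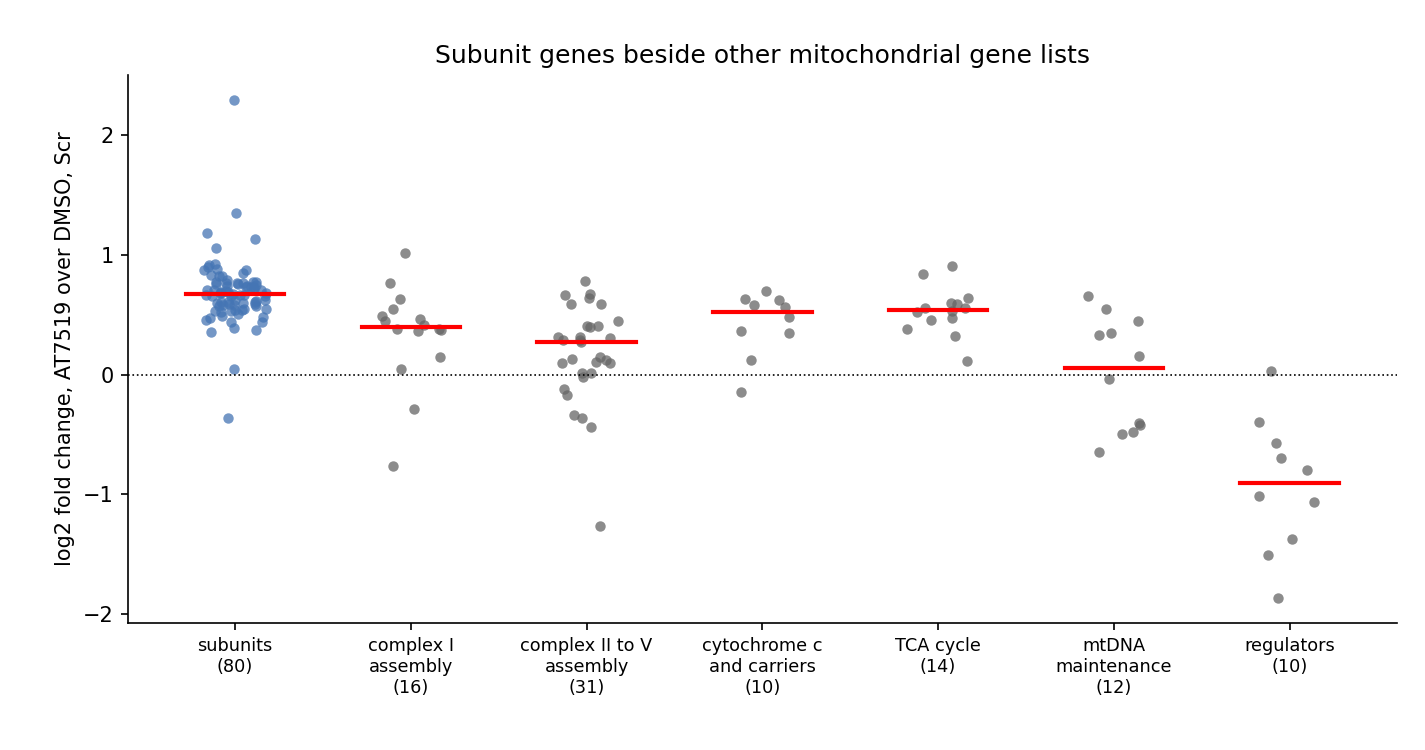
Log2 fold change of AT7519 over DMSO in Scr (vertical axis) for the 80 subunit genes and 6 other lists along the horizontal axis, with the number of genes under each name, 1 point a gene and the median as a bar. The subunit genes sit around a median of 0.68, and the 10 regulators sit around -0.90.

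Members differ from most tested coding genes in length. Their median gene span was 12588.5 bases, with a median of 5 exons in the transcript with most, against 32329.5 bases and 9 exons over 14576 tested coding genes. For AT7519 in Scr, the median log2 fold change of members was 0.74 for the 35 with spans up to 10 kb, 0.67 for the 26 with spans over 10 and up to 30 kb, and 0.58 for the 19 above that. All tested coding genes in the same classes had medians of 0.09, 0.03 and -0.17. The order by length was the same in both, and members were above all coding genes in each class; the part of length in the result was not tested.

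The OGT siRNAs changed few subunit genes under DMSO. These comparisons share the Scr samples with each other. In siOGT1, 1 member was called higher and 4 lower, against 4.89% and 5.51% of all tested genes, with a median of -0.06. In siOGT2, 0 were called higher and 2 lower, against 1.92% and 2.38% of all genes, with a median of -0.03; 6 members had an unadjusted p under 0.05 in siOGT2, against 16.8% of all genes. The shares of members called lower, 5.0% in siOGT1 and 2.5% in siOGT2, are near those of all genes. With AT7519, siOGT1 against Scr had 0 higher and 8 lower, against 9.97% and 9.19% of all genes, and siOGT2 against Scr had 0 higher and 4 lower, against 4.68% and 3.48% of all genes; 23 and 10 members had an unadjusted p under 0.05 in edgeR, against 31.2% and 21.7% of all genes. For the counts of 0, DESeq2 and limma voom each called 1 member higher for siOGT1 with AT7519 and 0 for siOGT2 with either agent. Leaving out 1 library moved some of these counts. The 4 lower calls of siOGT1 under DMSO became 2 without Scr replicate 2 and 1 without siOGT1 replicate 2. The 2 of siOGT2 under DMSO became 0 without any of its own or the Scr libraries. With AT7519 the 8 of siOGT1 became 5 without siOGT1 replicate 2, 13 without siOGT1 replicate 1 and 15 without either siOGT2 library, and the 4 of siOGT2 became 2 without Scr replicate 2 and 7 without siOGT2 replicate 1.

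ATP5MC1 fell in both siRNA arms with both agents. Its level was 167 and 132 in siOGT1, 177 and 135 in siOGT2, beside 245 and 238 CPM in Scr with AT7519, and 103 and 91.1 in siOGT1, 107 and 98.2 in siOGT2, beside 150 and 145 CPM in Scr with DMSO. No siRNA sample reached the Scr samples of its agent. The OSMI2 samples of ATP5MC1 also lay below Scr, at 214 and 179 CPM with AT7519 and 131 and 119 CPM with DMSO. The log2 fold changes against Scr were -0.69 (SE 0.12, adjusted p = 6.31e-04) in siOGT1 and -0.63 (adjusted p = 0.00386) in siOGT2 with AT7519, and -0.61 (adjusted p = 0.00371) in siOGT1 and -0.52 (adjusted p = 0.0203) in siOGT2 with DMSO, by edgeR. Under DMSO the siOGT1 call of ATP5MC1 was lost without siOGT1 replicate 2 (-0.52, adjusted p = 0.0798). The siOGT2 call was lost without any of its 4 libraries, at -0.60 without siOGT2 replicate 1, -0.47 without siOGT2 replicate 2, -0.50 without Scr replicate 1 and -0.56 without Scr replicate 2, with adjusted p up to 0.244.

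The 2 other genes of the c subunit differed from ATP5MC1 in which arms were called. ATP5MC3 stood at 320 and 295 in siOGT1, 390 and 330 in siOGT2, 318 and 297 in OSMI2, and 421 and 407 CPM in Scr with AT7519. With DMSO it stood at 199 and 200 in siOGT1, 226 and 224 in siOGT2, 202 and 184 in OSMI2, and 255 and 268 CPM in Scr. All samples of the 3 arms lay below Scr within an agent, and the calls were lower in siOGT1 and OSMI2. In siOGT1 the log2 fold change of ATP5MC3 was -0.43 with AT7519 (adjusted p = 9.71e-04) and -0.39 with DMSO (adjusted p = 0.00398), and in OSMI2 it was -0.43 with AT7519 (adjusted p = 0.00153) and -0.44 with DMSO (adjusted p = 0.00733), by edgeR. Under DMSO both calls were lost without Scr replicate 2 (-0.36, adjusted p = 0.0539 in siOGT1; -0.41, adjusted p = 0.158 in OSMI2), and without replicate 2 of the arm itself (-0.39, adjusted p = 0.0501 in siOGT1; -0.38, adjusted p = 0.154 in OSMI2). ATP5MC2 was called in no arm against Scr, with log2 fold changes of -0.12 to 0.06.

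NDUFA5, an accessory subunit of the matrix arm of complex I, was lower in siOGT1 and not called in the other arms. It stood at 137 and 121 in siOGT1, 246 and 196 in siOGT2, 205 and 184 in OSMI2, and 226 and 200 CPM in Scr with AT7519, and at 89.3 and 99, 133 and 147, 129 and 131, and 137 and 156 CPM with DMSO in the same arms. The siOGT1 samples were the lowest of their agent. The log2 fold change of NDUFA5 in siOGT1 was -0.72 with AT7519 (SE 0.11, adjusted p = 7.80e-05) and -0.64 with DMSO (SE 0.11, adjusted p = 5.38e-04) in edgeR, and in siOGT2 it was 0.05 and -0.07. NDUFS6, a zinc-binding subunit of complex I, was called lower under DMSO in siOGT1 (-0.26, adjusted p = 0.0366), siOGT2 (-0.29, adjusted p = 0.0400) and OSMI2 (-0.46, adjusted p = 0.00348) in edgeR. Leaving out 1 library ended the NDUFS6 call for 6 libraries in siOGT1, for 12 in siOGT2 and for 3 in OSMI2. With AT7519 it was called in no arm, at -0.21, -0.13 and -0.20 in the same order. NDUFS3, a core subunit, was the member called higher in siOGT1 under DMSO (0.28, edgeR adjusted p = 0.0466), a call lost without any 1 of 12 libraries.

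NDUFA11 and NDUFA13 were called lower in both siRNA arms with AT7519 and were not called with DMSO; the test of that difference is given with the interactions. NDUFA11 stood at 11.9 and 11.4 in siOGT1, 10.8 and 11.8 in siOGT2, 20.5 and 18 in OSMI2, and 18.3 and 19.5 CPM in Scr with AT7519. With DMSO it stood at 7.17 and 6.54, 6.46 and 5.84, 8.81 and 7.5, and 7.86 and 6.91 CPM in the same arms. The siRNA samples lay apart from the others with AT7519, and siOGT1 overlapped Scr with DMSO. The log2 fold change of NDUFA11 with AT7519 was -0.69 in siOGT1 (adjusted p = 7.49e-04) and -0.74 in siOGT2 (adjusted p = 0.00126), beside -0.11 and -0.27 with DMSO (adjusted p of 0.714 and 0.336), by edgeR. NDUFA13 had -0.70 in siOGT1 (adjusted p = 0.00308) and -0.63 in siOGT2 (adjusted p = 0.0162) with AT7519 in edgeR. The NDUFA13 calls were lost without Scr AT7519 replicate 2 (-0.54, adjusted p = 0.0594 in siOGT1; -0.46, adjusted p = 0.177 in siOGT2), and in siOGT2 also without siOGT2 AT7519 replicate 1 (-0.57, adjusted p = 0.0903). ATP5MF, subunit f of the ATP synthase, was lower in siOGT2 with AT7519 (-0.33, edgeR adjusted p = 0.0213), a call lost without Scr AT7519 replicate 2 (-0.22, adjusted p = 0.267) or siOGT2 AT7519 replicate 2 (-0.27, adjusted p = 0.156).

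**Figure D5:**
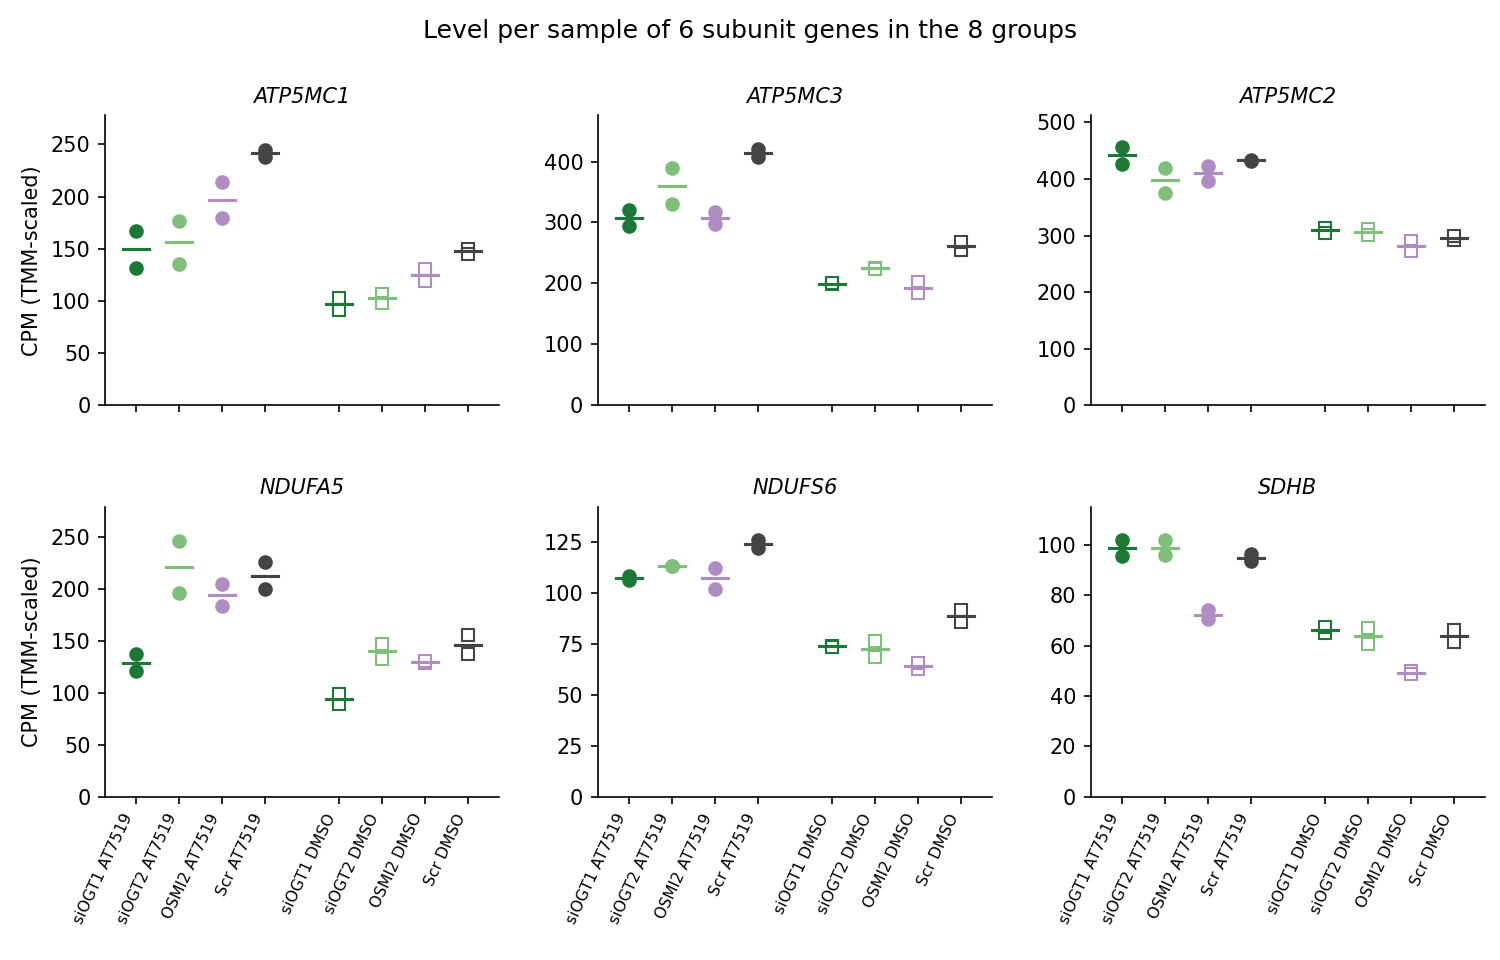
Level in CPM (vertical axes, each from 0) of ATP5MC1, ATP5MC3, ATP5MC2, NDUFA5, NDUFS6 and SDHB in the 16 samples, with AT7519 groups (filled circles) left of DMSO groups (open squares), 1 point a sample and the group mean as a dash. ATP5MC1 is at 132 to 177 CPM in both siRNA arms with AT7519, against 238 and 245 CPM in Scr, and ATP5MC2 has no arm called against Scr.

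In OSMI2 many subunit genes were slightly lower than in Scr with either agent under TMM scaling. Under DMSO 0 members were called higher and 13 lower, against 0.491% and 2.49% of all tested genes, and 76 of 80 had a negative log2 fold change, with a median of -0.21 beside -0.01 over all genes. With AT7519, 0 were called higher and 20 lower, against 5.18% and 9.01% of all genes, with a median of -0.19 beside 0.02 over all genes. At an unadjusted p under 0.05 there were 40 members with AT7519 and 41 with DMSO, against 27.6% and 15.2% of all genes, and DESeq2 and limma voom also called 0 higher. Both OSMI2 samples lay below both Scr samples in 62 members with AT7519 and in 70 with DMSO. Of all genes, 25.6% and 27.2% did so. Over genes, the difference between replicates correlated between the agents within OSMI2 (r 0.432). Between OSMI2 and Scr within an agent r was 0.045 with DMSO and 0.095 with AT7519. Among Scr and the siRNA arms within an agent it was 0.604 to 0.734. Whether OSMI2 was handled in a separate set from Scr is not known here. The part of handling in the difference between OSMI2 and Scr was not tested.

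The number of OSMI2 calls depended on the libraries and the scaling. Under DMSO, 13 calls became 0 without OSMI2 replicate 2 or Scr replicate 2, 2 without OSMI2 replicate 1, and 6 or 7 without Scr replicate 1 or any 1 of the AT7519 libraries of OSMI2 and Scr. With AT7519, 20 calls became 7 without OSMI2 replicate 2, 9 without Scr replicate 1, and 35 or 36 without any 1 AT7519 library of siOGT1 or siOGT2. DESeq2 gave 34 with AT7519 and 24 with DMSO. Upper-quartile scaling gave 4 with each agent, and so did library size alone, where 5.74% of all genes with AT7519 and 0.760% with DMSO were called lower. With library size alone the median of the members was -0.09 with AT7519 and -0.11 with DMSO, beside 0.12 and 0.09 over all genes. With upper-quartile scaling it was -0.10 and -0.14, beside 0.11 and 0.06 over all genes, of which 5.82% and 0.927% were called lower. With AT7519 the share of members called lower was thus below that of all genes under both of these scalings, and with DMSO above it. The share of all calls that were higher was 36.5% with AT7519 and 16.5% with DMSO under TMM, 58.3% and 41.5% under upper-quartile scaling, and 58.7% and 53.6% under library size alone.

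The OSMI2 calls were uneven over the complexes and fewest in complex IV with either agent, which was not tested. With AT7519 they were 8 of 36 in complex I, 2 of 4 in complex II and 5 of 10 in complex III. In complex IV they were 1 of 13 and in complex V 4 of 17, where 9.01% of all tested genes were called lower. With DMSO the calls were 4, 1, 4, 0 and 4 for complexes I to V, where 2.49% of all tested genes were called lower. In complex IV 4 of 13 members had an unadjusted p under 0.05 with DMSO, where 15.2% of all genes did. The lowest complex median was that of complex III with either agent, -0.25 with AT7519 and -0.29 with DMSO. A set of 10 members was lower with both agents: ATP5F1B, ATP5F1C, ATP5MC3, NDUFB10, NDUFB3, NDUFB4, SDHB, UQCR10, UQCRC2 and UQCRFS1. They are 10 of the 20 members called with AT7519 and 10 of the 13 called with DMSO (76.9%), where for all tested genes the shares were 22.2% and 80.3%.

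Among them, NDUFB10, an accessory subunit of the membrane arm of complex I, stood at 143 and 157 CPM in OSMI2 and 194 and 191 CPM in Scr with AT7519, and at 111 and 108 CPM in OSMI2 and 141 and 144 CPM in Scr with DMSO. Its log2 fold change was -0.36 with AT7519 (SE 0.07, adjusted p = 0.00226) and -0.38 with DMSO (adjusted p = 0.00827) in edgeR. UQCRFS1, the Rieske iron-sulfur protein of complex III, stood at 160 and 144 CPM in OSMI2 and 229 and 189 CPM in Scr with AT7519, and at 112 and 98.6 CPM in OSMI2 and 141 and 133 CPM in Scr with DMSO. The OSMI2 samples of both genes lay below Scr with either agent. UQCRFS1 had log2 fold changes of -0.46 (edgeR adjusted p = 0.00346) with AT7519 and -0.38 (adjusted p = 0.0362) with DMSO. SDHB, given above, had -0.39 (edgeR adjusted p = 0.00246) with AT7519 and -0.37 (adjusted p = 0.0165) with DMSO. NDUFB4, another membrane arm subunit, had -0.28 (edgeR adjusted p = 0.0230) with AT7519 and -0.41 (adjusted p = 0.00931) with DMSO. Under DMSO the calls of NDUFB10, NDUFB4, SDHB and NDUFS6 were each lost without OSMI2 replicate 1, OSMI2 replicate 2 or Scr replicate 2, with NDUFB10 between -0.40 and -0.36 (adjusted p up to 0.151), SDHB between -0.39 and -0.32 (adjusted p up to 0.28), and NDUFB4 between -0.45 and -0.31 (adjusted p up to 0.262). The UQCRFS1 call under DMSO was lost without any 1 of its 4 libraries or the 2 OSMI2 libraries with AT7519, at -0.48 to -0.30 with edgeR adjusted p up to 0.400. With AT7519 the NDUFB4 call was lost without OSMI2 replicate 1 (-0.27, edgeR adjusted p = 0.101) or Scr replicate 1 (-0.32, adjusted p = 0.0647). The ATP5F1B call under DMSO was lost without OSMI2 replicate 2, either OSMI2 library with AT7519 or any 1 Scr library, at -0.33 to -0.23. For UQCRC2 under DMSO it was lost without any 1 library except the siOGT2 libraries with AT7519, at -0.35 to -0.25. With AT7519 the calls of ATP5F1B and UQCRC2 were lost without OSMI2 replicate 2 or Scr replicate 1, at -0.30 to -0.25. The other lists moved by similar amounts in OSMI2 under DMSO: the medians were -0.22 for the tricarboxylic acid cycle, -0.25 for mitochondrial DNA transcription and replication and -0.20 for the regulators.

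Whether the AT7519 response of a member differed between an arm and Scr was tested as an interaction, which uses the same samples as the comparisons above. For siOGT1, siOGT2 and OSMI2, edgeR called 0 members each, where 0.0504%, 0% and 0.747% of all tested genes were called. At an unadjusted p under 0.05 there were 2, 3 and 3 members in the same order, against 5.85%, 3.89% and 8.76% of all genes; DESeq2 called 1 member lower for siOGT1 and 0 for the others, and limma voom called 0. The member with the smallest p was NDUFA9 in siOGT1, where the log2 response was smaller than in Scr by a difference of -0.52 (SE 0.15, edgeR adjusted p = 0.364). NDUFA9 stood at 17.8 and 20.6 CPM in siOGT1 and 22.3 and 22.3 CPM in Scr with AT7519, and at 11.8 and 12.4 CPM in siOGT1 and 9.86 and 9.78 CPM in Scr with DMSO. NDUFA11 had differences of -0.59 in siOGT1 (edgeR adjusted p = 0.433) and -0.48 in siOGT2 (edgeR adjusted p = 1.0). NDUFA13 had differences of -0.45 in siOGT1 (edgeR adjusted p = 0.862) and -0.42 in siOGT2 (edgeR adjusted p = 1.0). In OSMI2 the differences were -0.44 for NDUFA9 (edgeR adjusted p = 0.306), -0.47 for NDUFA13 (edgeR adjusted p = 0.555) and 0.26 for NDUFS6 (edgeR adjusted p = 0.475). A p above the threshold does not show that the responses were equal.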

How the data were processed

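RNA of 16 LNCaP samples was sequenced from strand-specific TruSeq libraries, per the labels. The deposited counts are whole reads per gene, and the deposited signal values are the authors' normalized counts. STAR, HTSeq, DESeq2, hg19 and GRCh37 are named in the submitters' processing notes; versions and the strand setting, not given in the sources used here, are left unnamed. Members were chosen on the deposited normalized counts, and members and lists were chosen with earlier results of these data known.

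The 16 samples were fitted together with edgeR 4.0.16 (R 4.3.3): filterByExpr kept 23830 genes and all 80 members, TMM scaling, 1 mean per group (8 residual degrees of freedom), glmQLFit (robust) and two-sided glmQLFTest, Benjamini-Hochberg adjustment over all tested genes. Standard errors were taken as |log2 fold change| divided by the root of the F statistic. The common biological coefficient of variation was 0.11. The fit was also run on simulated counts with known fold changes, and the result of that run is not given here. Alternatives used DESeq2 1.42.0, limma 3.58.1 (voom), other scalings and filters, the replicate number as a block, and each library left out. GENCODE v29 (GRCh38) gave biotypes, lengths and overlaps, and RefSeq (GRCh38.p14) gave promoters, so no coordinate comes from the counts' build.

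Named genes followed a rule: per complex the highest and lowest mean AT7519 response and level per kilobase, for other comparisons the smallest adjusted p (up to 4 a direction), all SDH and c subunit genes, and subunit name pairs. Members named beyond it were chosen after their values were seen.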

Additional observations from a re-analysis of the deposited data

How the results depend on the processing

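The higher calls with AT7519 stayed within 1.5 times in every alternative run, and of 152 pairs of a named member and a comparison, no direction reversed. The low counts moved. Members called lower with AT7519 in siOGT1 were 0 under RLE scaling, upper-quartile scaling, DESeq2, no low-count filter and the compared groups only, and siOGT2 also gave 0 under upper-quartile scaling. For siOGT1 against Scr under DMSO, higher calls were 0 under RLE scaling, 3 under upper-quartile scaling, library size only and the filter at a mean log2 CPM of 3, and 2 under DESeq2 and compared groups only, which gave 7 lower calls. siOGT2 against Scr under DMSO had 1 lower under upper-quartile scaling, library size only, no filter and compared groups only. For siOGT1 against Scr with AT7519, higher calls were 1 (upper-quartile, DESeq2, voom), 2 (the log2 CPM filter) or 3 (library size only), and lower calls were 14 (voom), 17 (the log2 CPM filter) or 5 (compared groups only), where siOGT2 had 1 lower. OSMI2 against Scr had 4 lower with each agent under upper-quartile scaling and library size only, and 34 with AT7519 and 24 with DMSO in DESeq2. With AT7519 it had 6 with the log2 CPM filter and 12 with compared groups only. DESeq2 called 1 member lower in the siOGT1 interaction. Some calls of named members were lost as well. With library size only these were the AT7519 calls of SDHD in siOGT1, OSMI2 and Scr, NDUFA5 in siOGT1, ATP5MC2 in siOGT2 and NDUFA13 in Scr. Under both library size only and upper-quartile scaling they were NDUFS6 under DMSO in both siRNA arms. In OSMI2 they were ATP5F1B and UQCRC2 with both agents, SDHB, UQCRFS1 and UQCRHL under DMSO, and NDUFB4, NDUFS3 and SDHD with AT7519. With compared groups only they included ATP5MC1, ATP5MF and NDUFA13 with AT7519 and NDUFS6 under DMSO in siOGT2. ATP5PO in siOGT1 and UQCRC2 in OSMI2, both against Scr with AT7519, were lost there too. The cause was not tested.

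Leaving out 1 library, higher calls with AT7519 were 75 to 77 in siOGT1, 75 to 77 in siOGT2, 73 to 77 in OSMI2 and 77 to 78 in Scr, and lower calls were 0 to 1 in siOGT1 and 1 in the other arms. Against Scr with AT7519, siOGT1 had 0 to 1 higher and 5 to 15 lower, siOGT2 2 to 7 lower and OSMI2 7 to 36 lower. Under DMSO, siOGT1 had 0 to 1 higher and 1 to 5 lower, siOGT2 0 to 2 lower and OSMI2 0 to 17 lower. The remaining counts were 0 throughout.

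Same-numbered replicates deviated together within an agent in the siRNA and Scr arms (r 0.604 to 0.734 over genes) and between agents in OSMI2 (0.432). They did not between agents in Scr (0.036), siOGT1 (-0.014) or siOGT2 (-0.135), and the labels state no pairing. Between OSMI2 and Scr within an agent r was 0.045 with DMSO and 0.095 with AT7519. These values give little ground for a replicate block shared by OSMI2 and Scr. With the replicate number as a block, siOGT1 against Scr had 2 higher under DMSO, and 1 higher and 13 lower with AT7519, and OSMI2 had 20 lower under DMSO. With a block within each agent, siOGT1 had 3 higher and 8 lower under DMSO and 1 higher and 24 lower with AT7519, siOGT2 had 8 lower with AT7519, and OSMI2 had 40 lower with AT7519 and 38 with DMSO. Of all genes, 9.92% in siOGT1 under DMSO and, with AT7519, 14.0% in siOGT1, 7.77% in siOGT2 and 13.7% in OSMI2 were then lower, and 7.60% in OSMI2 under DMSO; the 24 of 80 members in siOGT1 lie above that share. Crossing the siOGT2 numbers, an alternative chosen after seeing the data, left 77 higher and 1 lower.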
